A study of Mus musculus with 18 samples.

Results

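The cytosolic ribosomal proteins are the protein components of the ribosomes that translate most cellular mRNAs. Genes were taken as members when their symbol followed the mouse naming scheme for the proteins of the large subunit (Rpl and the stalk genes Rplp0 to Rplp2) or of the small subunit (Rps and Rpsa), which keeps tissue-restricted relatives such as Rpl3l and leaves out symbols of pseudogenes, mitochondrial ribosomal proteins and ribosomal protein kinases. The rule found 83 of the 24485 genes in the files, 51 of the large and 32 of the small subunit. Of these, 79 had at least 10 counts in every one of the 18 libraries, and 4 (Rpl3l, Rpl10l, Rpl32l and Rpl39l) had fewer than 10 counts in all libraries.

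Ribosomal proteins are made in near-equal amounts, assembled with ribosomal RNA in the nucleolus and exported as subunits. Their mRNAs are short and abundant and begin with a C followed by a run of pyrimidines, the 5′ terminal oligopyrimidine (5′ TOP) sequence, through which mTORC1 signalling and the RNA-binding protein LARP1 control their translation and stability. Activated macrophages translate large amounts of cytokine mRNA, and many of these genes are often used as references of stable expression.

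RNA-seq was performed on bone marrow-derived macrophages (BMDMs) grown for 6 days in L929-conditioned medium from 3 mice, male and 12 weeks old, of the Il10-/- genotype (C57BL/6J background), so that cells of every group lacked IL-10 production. Each of 6 groups held 3 libraries, numbered 1 to 3. The sources used here do not state which animal each number stands for, so the numbers were not taken to pair the libraries. Unstimulated cells stayed untreated for 16 hours. The JQ1 and IL10 groups received 500 nM (+)-JQ1, an inhibitor of the bromodomains of BET proteins, or 10 ng/mL recombinant IL-10 for 12 hours, and PBS for the last 4 hours. The 3 stimulated groups, LPS, LPS + JQ1 and LPS + IL-10, had the same pretreatments (vehicle for LPS alone, by the methods of the study), followed by 50 ng/mL LPS, a bacterial cell wall lipid, for 4 hours. Since the unstimulated cells were untreated, comparisons with them include any effect of the vehicle, which cannot be told apart. The comparisons address how BET inhibition and exogenous IL-10 alter the response of these cells to LPS.

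Libraries held between 6781952 and 28289498 expected counts, that is, reads assigned to genes by a model that divides ambiguous reads among candidates. Macrophage markers were abundant in every library, with summed TPM (a relative abundance scaled for transcript length and library total) of 22900 to 24600 in unstimulated cells, 28900 to 29100 with JQ1 and 14100 to 15500 with LPS, and none of the 7 genes was at 0. Lyz2 (lysozyme) carried most of the sum and went from a mean of 18400 to 24700 TPM with JQ1. Cd14 (590 to 802 TPM) and Mertk (69.2 to 116 TPM) also had higher means with JQ1. The other markers, Itgam (309 to 86.3 TPM), Csf1r (1620 to 1190 TPM), Cd68 (2090 to 1650 TPM) and Adgre1 (685 to 492 TPM), had lower means with JQ1. The markers of neutrophils and their precursors summed to 21.1 to 76.1 TPM in unstimulated libraries and 6.76 to 13.9 TPM with JQ1, and those of T and B cells stayed at or below 8.76 and 5.13 TPM in all libraries. The part of these differences in the results was not tested. In bulk RNA, fewer cells of a kind and less RNA per cell cannot be told apart.

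RefSeq start sites (build GRCm38.p6) were at hand for 62 members, and the sequences around the starts of 8 are shown to set the largest rises with JQ1, described later, beside the smallest changes. Members with lower levels with JQ1, such as Rps27, are not among them. Each line holds the 50 bases before the listed start of transcription and the first 30 bases from it, all on the plus strand, and capitals mark the longest run of C and T between 20 bases before the start and the end of the line. In none of the 8 was the listed first base a C followed by 4 pyrimidines, so the capitals do not mark a 5′ TOP sequence at that base. For Rps25 and Rpl37 the capitals end before the listed start. The genes were chosen after their values were seen. Among members with an entry and at least 10 counts in every library, the 5 with the largest rise with JQ1 come first, followed by the 3 with the smallest change.
Rps2 (chr17:24720013-24720092): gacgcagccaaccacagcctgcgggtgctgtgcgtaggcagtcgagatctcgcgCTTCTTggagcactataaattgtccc
Rpl12 (chr2:32961662-32961741): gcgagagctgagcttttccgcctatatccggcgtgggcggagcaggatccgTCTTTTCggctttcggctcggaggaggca
Rpl7a (chr2:26910757-26910836): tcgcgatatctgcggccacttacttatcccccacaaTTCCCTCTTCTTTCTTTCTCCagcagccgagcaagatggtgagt
Rpl36a (chrX:134585604-134585683): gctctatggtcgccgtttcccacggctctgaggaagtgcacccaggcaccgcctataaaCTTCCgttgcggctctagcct
Rplp0 (chr5:115559417-115559496): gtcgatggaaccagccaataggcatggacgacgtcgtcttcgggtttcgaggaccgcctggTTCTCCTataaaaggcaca
Rps25 (chr9:44407664-44407743): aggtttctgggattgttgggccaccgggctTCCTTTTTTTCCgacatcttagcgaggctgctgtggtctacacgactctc
Rpl35a (chr16:33056403-33056482): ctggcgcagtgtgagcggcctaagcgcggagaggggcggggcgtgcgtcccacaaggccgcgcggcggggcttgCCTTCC
Rpl37 (chr15:5116563-5116642): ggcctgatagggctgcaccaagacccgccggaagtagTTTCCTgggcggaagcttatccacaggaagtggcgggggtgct

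A pyrimidine run of at least 8 bases in that window was present at 31 of 62 members (50%) and at 18.8% of the 26963 other genes with an entry, and the median length of the longest run was 7.5 bases in members against 5 in the others. The listed first base was a C followed by at least 4 pyrimidines in 13 members (21%) and in 2.48% of the other genes. In the whole entry, from 250 bases before to 50 after the start, the ETS-family motif CCGGAAG was found on either strand at 25 members (40.3%) and 9.01% of other genes, the YY1 motif AAGATGGC at 8.06% and 2.85%, the E-box CACGTG at 8.06% and 7.09%, and TATAAA at 11.3% and 14.1%. The median log2 fold change with JQ1 was 0.28 in the 31 members with a long pyrimidine run and 0.24 in the 30 others with a value, and 0.22 with and 0.29 without CCGGAAG. It was 0.09 in 5 members with and 0.28 without the YY1 motif, 0.16 in 7 with and 0.27 without TATAAA, and 0.21 in 5 with and 0.28 without the E-box. No filter on counts was applied to these medians. The 7 members with TATAAA include Rpl32l (-2.07), which was close to 0 in all libraries. The 5 with the YY1 motif include Rps27 (-1.12), which had 0.24 when summed with a near-identical copy described later. Rpl3l (-2.18), also close to 0, is among those without each of these motifs. With so few members, the order of these medians is uncertain. The motifs were chosen after the values were seen, and a match is not evidence of binding.

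Members were among the most abundant mRNAs. The median over members of the mean TPM across all libraries was 876, 73 members exceeded 100 TPM, and their median transcript length of 725 bases was well below the 2616 bases of all genes with reads. Rps29 (3741 TPM), Rpl41 (2691 TPM) and the stalk protein gene Rplp2 (2149 TPM) had the highest mean levels. Rpl10l was listed at 0 in all libraries, and Rpl3l (0.0539 TPM) and Rpl32l (0.212 TPM) were close to 0.

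The total share of TPM held by the members was lower with LPS, and higher with LPS + JQ1 than with LPS. Unstimulated replicates 1, 2 and 3 held 8.57%, 8.52% and 9.41%, JQ1 replicates 9.44%, 9.33% and 10.1%, and IL-10 replicates 8.57%, 9.02% and 9.40%. LPS replicates held 5.79%, 6.37% and 6.24%, those given JQ1 before LPS 7.48%, 8.47% and 8.23%, and those given IL-10 before LPS 5.83%, 6.44% and 6.27%. The libraries with LPS and with LPS + IL-10 lay below all others, and those with LPS + JQ1 lay between them and the unstimulated libraries, without overlap. The means were 8.83% ± 0.502 (SD, n = 3) in unstimulated cells, 9.61% ± 0.391 (JQ1), 6.13% ± 0.302 (LPS), 8.06% ± 0.516 (LPS + JQ1) and 6.18% ± 0.311 (LPS + IL-10). The JQ1 and unstimulated ranges overlapped.

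Genes outside the members that were higher with LPS, as selected on these same libraries, held 30.3% to 32.7% of TPM in unstimulated cells, 54.9% to 62.2% with LPS and 45.0% to 48.7% with LPS + JQ1. When genes changed by LPS were taken out of the denominator and the members kept, the share was 18.4% ± 1.46 (SD, n = 3) in unstimulated cells, 17.4% ± 2.58 with LPS, 20.1% ± 1.34 with JQ1 and 20% ± 2.4 with LPS + JQ1. The ranges of these 4 groups overlapped. The 78 mitochondrial ribosomal protein genes held 0.273% to 0.297% of TPM in unstimulated cells, 0.251% to 0.262% with JQ1, 0.208% to 0.219% with LPS and 0.232% to 0.246% with LPS + JQ1. Their share was thus lower with JQ1 without LPS and higher with JQ1 in stimulated cells, in each case without overlap between the groups.

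**Figure D1:**
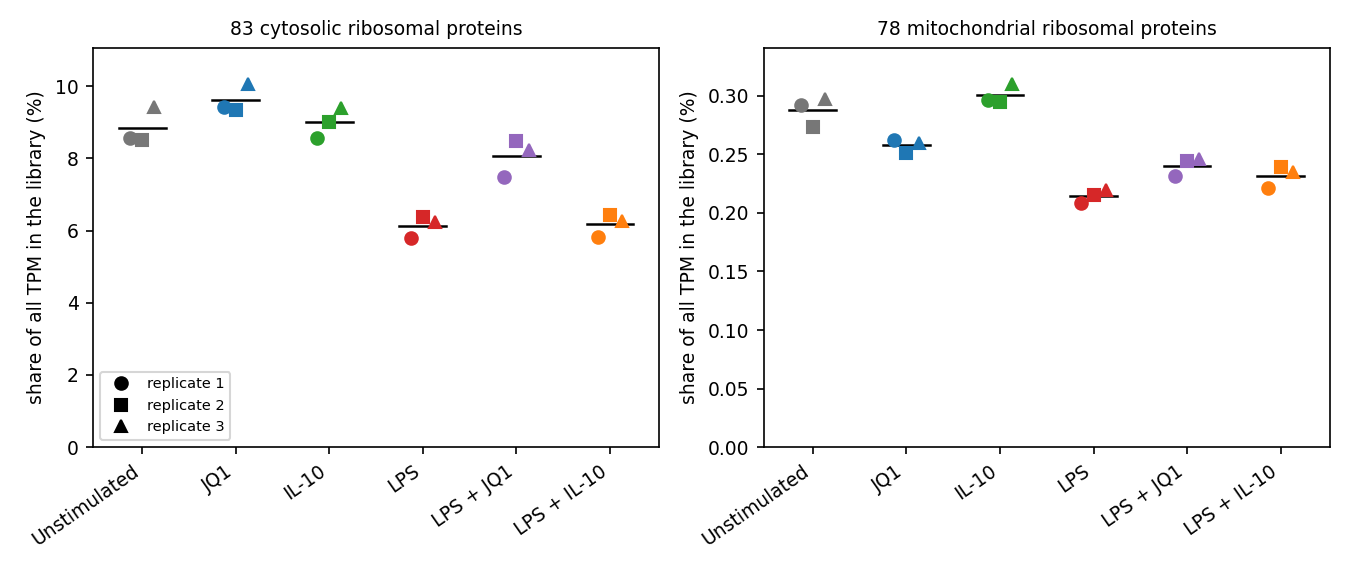
Share of all TPM in each library held by the 83 cytosolic ribosomal protein genes (left) and the 78 mitochondrial ribosomal protein genes (right), in percent, by group, with 1 symbol per library (circle, square and triangle for replicates 1, 2 and 3) and a line at the mean. On the left, LPS libraries lie at 5.79% to 6.37%, and LPS + JQ1 libraries at 7.48% to 8.47%.

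Processed copies of ribosomal protein mRNAs are scattered through the mouse genome, and they affect which gene a read is given to. Of 80 members with a coding sequence in the annotation of build mm9, 71 had at least 1 genomic match with 90% identity over 90% of its length, with a median of 8 matches and a highest number of 79 (Rpl21). A match of an unbroken coding sequence to its own locus was not taken out of these numbers. For 8 members a near-identical copy was itself listed in the files. In 4 of them the copy took most reads. The listed member received 3.34% of the pair's counts for Rpl26 (copy Gm15772), 3.23% for Rpl30 (Gm12191), 12.6% for Rpl34 (Rpl34-ps1) and 1.02% for Rps27 (Rps27rt). Their low levels (48.5 TPM for Rpl26 and 11.9 TPM for Rps27, against 1494 TPM for Gm15772 and 2291 TPM for Rps27rt) are therefore uncertain, and their values were also computed on the sum of member and copy. For the other 4 pairs, Rpl14, Rpl37, Rplp2 and Rps23, the member received 97.2% to 99.3% of the counts. Apart from copies, 19 members share exonic bases with another listed gene, 12 of them with one on the opposite strand.

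LPS was compared with unstimulated cells to ask how 4 hours of stimulation changed the members. Counts were scaled by the median of ratios, which sets a typical gene near no change (median log2 fold change of all genes -0.07). On this scale 48 of 82 members tested were higher and 0 were lower (DESeq2 Wald test, adjusted p under 0.05, with 53 members at an unadjusted p under 0.05 in either direction), while 31.6% of all genes were called higher and 32.9% lower. The median of the members was 0.30. The numbers were 38 higher and 1 lower with TMM factors (background 30.4% and 35.9%) and 41 and 1 by edgeR (background 36.5% and 43%). When each library was scaled to its total, the split of the calls turned to 2 higher and 75 lower (background 15.2% higher and 60.5% lower), and with limma on log2(TPM + 1) it was 2 higher and 71 lower (background 20.4% and 66.6%). The median of the members was above that of all genes by 0.37 in the main scaling, 0.38 with TMM, 0.39 with total counts and 0.21 with TPM. A single factor per library shifts both medians alike. The near-equality of the values by main scaling, TMM and total counts was therefore fixed in advance. LPS thus left the members lower as a share of the library and higher relative to the typical gene. Taken between libraries of the same number, the difference of medians was 0.39, 0.44 and 0.16 for replicates 1, 2 and 3, of which replicate 1 was sequenced entirely on lane 7, replicate 3 entirely on lane 8, and replicate 2 on lane 7 without and lane 8 with LPS. Without replicate 2 the number higher was 32, and without replicate 3 it was 61.

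**Figure D2:**
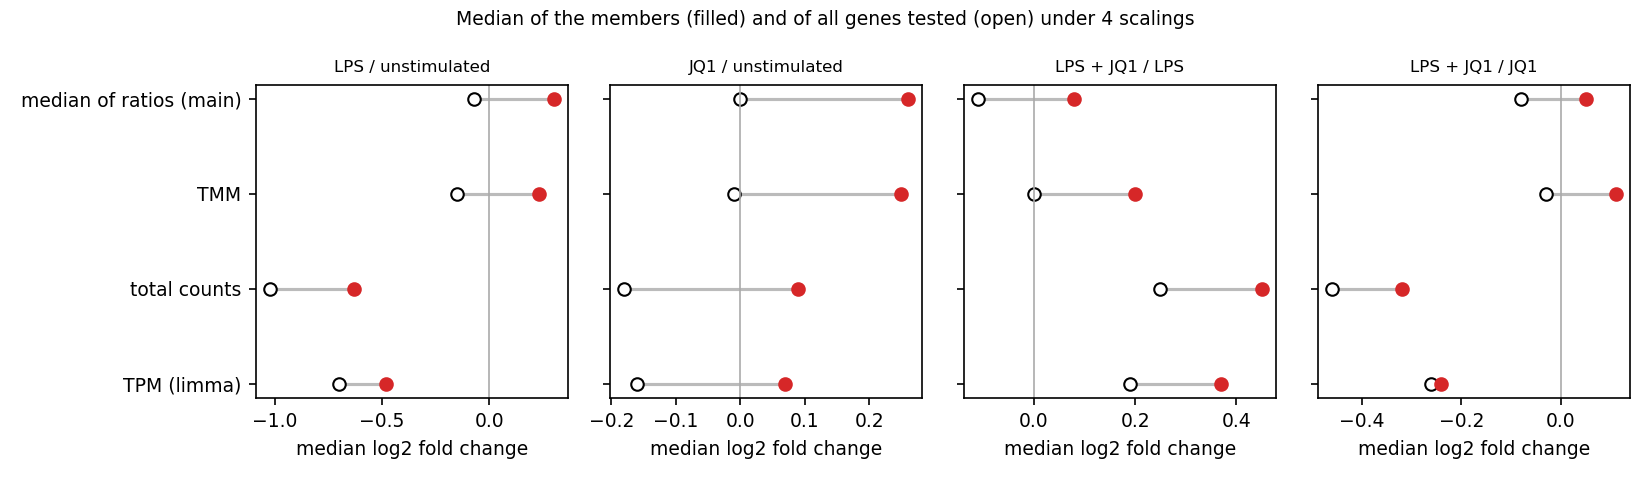
Median log2 fold change of the cytosolic ribosomal protein genes (filled) and of all genes tested (open) in 4 comparisons, under 4 ways of scaling the libraries. The axis range differs between panels, and the filled point lies to the right of the open one in each row, while its side of 0 depends on the scaling for LPS / unstimulated and for LPS + JQ1 / JQ1. A factor per library moves both points of a row alike, so the gap between them could barely change except with TPM.

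A few members departed from the rest with LPS. Rpl24, a large-subunit protein at the interface of the subunits (mm9 chr16:55966388-56009026, plus strand), had normalised counts of 2293, 2295 and 2546 in unstimulated replicates 1, 2 and 3, 5501, 5969 and 5218 with LPS, and 3587, 4158 and 3902 with LPS + JQ1. All LPS libraries were above all LPS + JQ1 libraries, which were above all unstimulated ones. Its log2 fold change with LPS was 1.22 (SE 0.0765, DESeq2 adjusted p 9.05e-57), and Rpl24 was also higher with LPS under total-count scaling and in TPM. The opposite-strand gene Pcnp shares 238 exonic bases with Rpl24, reads were assigned without regard to strand, and the log2 fold change of Pcnp with LPS was 1.12 (SE 0.12, DESeq2 adjusted p 4.07e-20). Pcnp held 34.2 TPM in unstimulated cells and Rpl24 between 618.7 and 727.9 TPM. The part of shared reads in the change of Rpl24 was not tested.

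Rpl26, known for binding p53 mRNA besides its place in the large subunit, rose from 132.7, 101.5 and 91.2 normalised counts to 367.6, 315.4 and 389.2 (log2 fold change 1.72, SE 0.309, DESeq2 adjusted p 7.22e-08). This held a shift between the member and its copy, since the share of their common counts given to Rpl26 was 2.66% ± 0.663 (SD, n = 3) in unstimulated cells and 7.21% ± 1.27 with LPS. On the sum of Rpl26 and Gm15772 the log2 fold change was 0.29 (SE 0.0806, DESeq2 adjusted p 0.000772). The value near that of other members was also seen for the sums of Rpl30 (0.35), Rpl34 (0.43) and Rps27 (0.31). All these sums were fitted on the median-of-ratios scale only, and by total counts 75 of 82 members tested were called lower with LPS.

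Most other members stayed within a narrow band on the median-of-ratios scale. Over the 79 members with at least 10 counts in every library, the middle 50% of log2 fold changes with LPS ran from 0.15 to 0.39, and 7 members were above 0.5. The large- and small-subunit members had the same median of 0.30, with 28 of 50 and 20 of 32 called higher. Among members with known roles outside the ribosome, Rps6, the S6 kinase substrate, had a log2 fold change of 0.44 (SE 0.0449), Rpl5, which together with Rpl11 binds Mdm2, 0.38 (SE 0.0442), Rpl23, also a binder of Mdm2, 0.33 (SE 0.0922), Rps27a, made as a fusion with ubiquitin, 0.35 (SE 0.0906) and Rps3, an NF-kB partner with DNA repair activity, 0.21 (SE 0.0787), all passing the DESeq2 test (adjusted p 8.09e-22 to 0.015). Rpl11 had 0.24 (SE 0.0905, DESeq2 adjusted p 0.0126). The sign of these 6 values turned with the scaling, since by total counts they were -0.49 for Rps6, -0.55 for Rpl5, -0.60 for Rpl23, -0.57 for Rps27a, -0.72 for Rps3 and -0.68 for Rpl11, all called lower. Rpl13a, a component of the GAIT complex that silences inflammatory mRNAs, had -0.14 (SE 0.0773, DESeq2 adjusted p 0.0902), and Rps19, a Diamond-Blackfan anemia gene, 0.18 (adjusted p 0.106), and by total counts both were called lower (-1.07 and -0.74). Rpl13a shares 1138 exonic bases on the same strand with Flt3l in this annotation, and Flt3l was at 5.72 TPM in unstimulated cells.

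JQ1 without LPS was associated with higher levels of most members. Of 80 members tested, 55 were higher and 1 was lower (DESeq2 Wald test, adjusted p under 0.05), against 21.9% and 23.7% of all genes, and the median was 0.26 for members and 0.00 for all genes. With TMM factors 51 were higher and 1 lower (background 21.3% and 24.2%), and by edgeR 50 and 1 (background 24.9% and 27.8%). With total-count scaling 18 were higher and 2 lower (background 12.2% and 33.4%), and with limma on TPM 16 and 1 (background 13% and 38.4%). The difference from the median of all genes was 0.30, 0.27 and 0.25 between libraries numbered 1, 2 and 3. Without replicate 2 the number higher was 35. The 1 member called lower was Rps27, with 23.1, 23.7 and 114 normalised counts in unstimulated replicates 1, 2 and 3 and 25.1, 28.6 and 22.0 with JQ1. Unstimulated replicate 3 alone was above the JQ1 range, and without replicate 3 the log2 fold change of Rps27 was 0.20 (DESeq2 adjusted p 0.786) and 0 members were lower. Rps27 received 1.02% of the counts it shares with Rps27rt, and the sum of both had a log2 fold change of 0.24 (SE 0.0992, DESeq2 adjusted p 0.0377).

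Rps2, a small-subunit protein near the entry of the mRNA channel (mm9 chr17:24855061-24858874, plus strand), had the largest rise. Its normalised counts in the 3 replicates were 7561, 7775 and 7744 (unstimulated), 12809, 14442 and 13838 (JQ1), 7926, 8122 and 7017 (LPS), and 13050, 12819 and 13601 (LPS + JQ1). Every library with JQ1 was above every library without it, and the LPS libraries overlapped the unstimulated ones. The log2 fold change with JQ1 was 0.83 (SE 0.0712, DESeq2 adjusted p 7.31e-30), that with LPS 0.00 (adjusted p 0.998), and that of LPS + JQ1 against LPS 0.77 (SE 0.0715, adjusted p 2.29e-26). In TPM, Rps2 lay between 1266 and 1343 in unstimulated cells and between 1938 and 2068 with JQ1. The opposite-strand gene Snhg9 shares 14 exonic bases with Rps2 and was at 15.8 TPM in unstimulated cells and 10.3 TPM with JQ1. Snora64 shares 134 exonic bases with Rps2 on the same strand. Its mean was 93 TPM in unstimulated cells, 0 with JQ1, 24 with LPS and 101 with LPS + JQ1. The part of shared reads in the change of Rps2 was not tested.

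Rpl12, of the stalk base of the large subunit (mm9 chr2:32817079-32820016, plus strand), showed a like order. The unstimulated libraries held 3229, 3826 and 3762 normalised counts, the JQ1 libraries 6046, 5896 and 6174, the LPS libraries 3700, 4089 and 3383, and the LPS + JQ1 libraries 5731, 5471 and 6277, with no overlap between libraries with and without JQ1. The log2 fold change was 0.75 with JQ1 (SE 0.0945, DESeq2 adjusted p 4.56e-14) and 0.65 for LPS + JQ1 against LPS (SE 0.0948, adjusted p 4.71e-11). Rpl12 and Lrsam1 share 56 exonic bases on opposite strands, and Lrsam1 was at 10.7 TPM in unstimulated cells and 10.4 TPM with JQ1.

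The stalk, which recruits elongation factors to the ribosome, had all 3 of its genes called higher by JQ1 without LPS. In that comparison 68.8% of the members tested and 21.9% of all genes were called higher. Rplp0, the protein that anchors it, had 9810, 9906 and 10298 normalised counts (unstimulated), 13931, 15205 and 15139 (JQ1), 11659, 12383 and 10761 (LPS), and 16719, 17213 and 17437 (LPS + JQ1). The JQ1 libraries lay above those without JQ1 in either setting (log2 fold change 0.56, SE 0.0657, DESeq2 adjusted p 2.43e-16 without LPS, and 0.56, SE 0.0657, adjusted p 8.42e-17 with LPS). Rplp1 had log2 fold changes of 0.30 in both settings (SE 0.104, DESeq2 adjusted p 0.00985 and 0.00886), and Rplp2 0.28 (SE 0.0982, adjusted p 0.0107) and 0.18 (adjusted p 0.104). In TPM the unstimulated and JQ1 ranges overlapped for Rplp1 (2321 to 2602 and 2482 to 2828) and for Rplp2 (2225 to 2477 and 2397 to 2597). Rpsa, the small-subunit protein that also serves as a laminin receptor, had 0.18 (SE 0.0789, DESeq2 adjusted p 0.0488, and -0.02 by limma on TPM) without LPS and 0.12 (adjusted p 0.174) with it.

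Rpl7a of the large subunit completed the 3 largest rises with JQ1 (log2 fold change 0.72, SE 0.0739, DESeq2 adjusted p 9.57e-21), from 5570, 6212 and 5997 to 9209, 9755 and 10212 normalised counts. The pyrimidine run shown above at its start is the longest among the 62 members with an entry, at 21 bases. Rps20 had 0.65 (SE 0.0664), and Rps6 and Rpl41, the smallest ribosomal protein, both had 0.55 (SE 0.0444 and 0.103). Rps25, Rpl35a and Rpl37, with the smallest changes among members shown by sequence, had 0.03 (SE 0.0823), -0.06 (SE 0.165) and 0.08, none of them called. Rpl10, which joins the large subunit late, had 0.43 (SE 0.0541, DESeq2 adjusted p 5.22e-14). No sequence feature was tested against these changes.

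**Figure D3:**
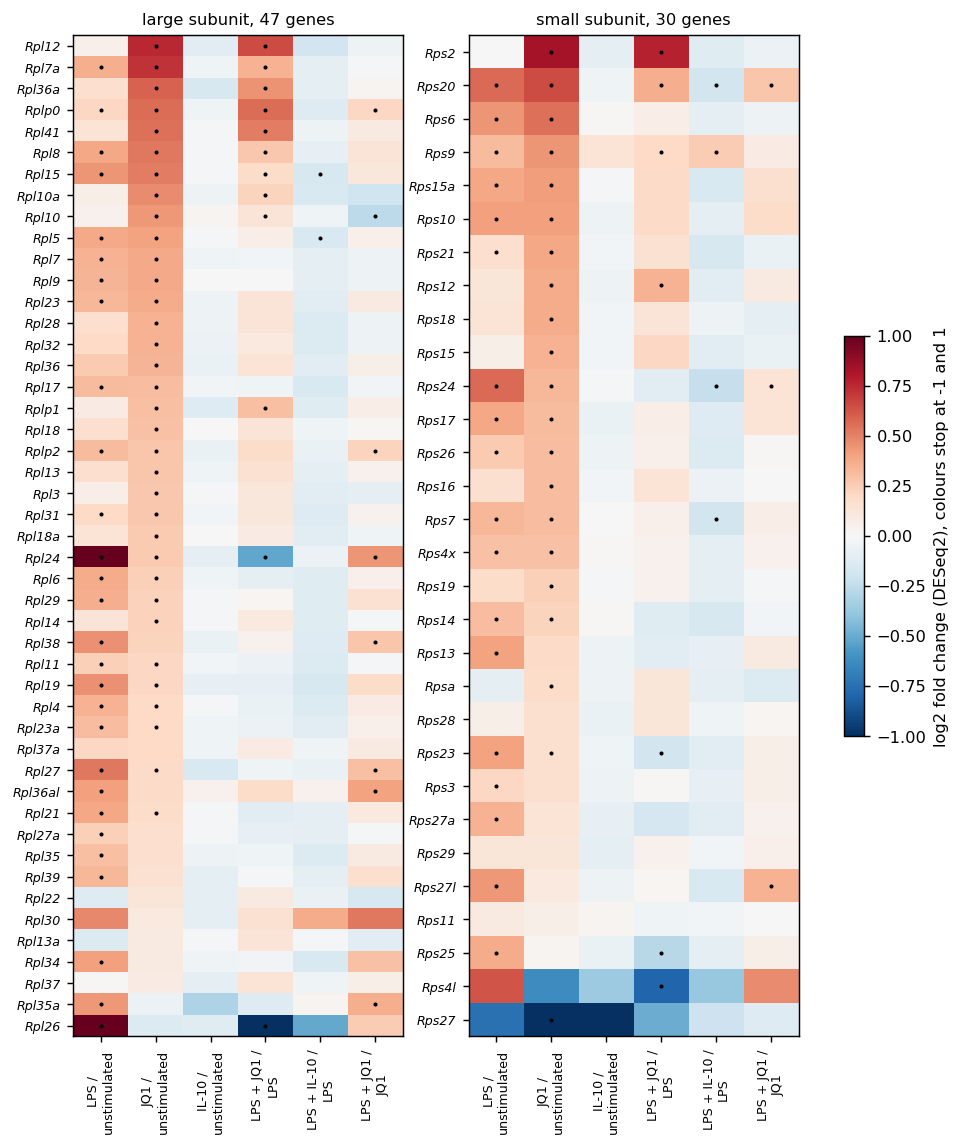
DESeq2 log2 fold change of 77 of the 79 members with at least 10 counts in every library (rows; the others are not reported here; sorted by JQ1 / unstimulated within each subunit) in 6 comparisons (columns), with red for higher and blue for lower and a dot where the adjusted p is under 0.05. On this scaling the JQ1 column is above 0 in 73 of 77 rows and the LPS column in 72, most of which are below 0 by total counts for LPS, and Rpl24 and Rpl26 are red with LPS and blue for LPS + JQ1 / LPS.

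LPS + JQ1 was compared with LPS to ask how BET inhibition changed the members during stimulation. Of 81 tested, 15 were higher and 6 lower (DESeq2 Wald test), against 24.4% and 32.9% of all genes, with a median of 0.08 for members and -0.11 for all genes. Here too the split depended on the scaling, with 35 higher and 3 lower by TMM (background 28.1% and 28%), 35 and 4 by edgeR (background 33.9% and 34.5%), 70 and 1 by total counts (background 37.7% and 20.4%) and 66 and 2 by limma on TPM (background 45% and 26%), while the difference of medians was 0.19 in the main scaling, 0.20 by TMM, 0.20 by total counts and 0.18 by TPM. As described for LPS, a factor per library shifts both medians alike, so this difference could barely move between main scaling, TMM and total counts. In replicates 1, 2 and 3 the difference was 0.13, 0.07 and 0.32, and without replicate 3 it was 0.10, with 8 members higher and 6 lower. Without replicate 2, 12 were higher and 2 lower.

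All 15 members called higher by JQ1 with LPS (100%) were among the 55 called higher without it (27.3% of them), where 68.8% of the members tested were called. Over all genes, 1840 were called higher in both comparisons, 52.7% of the 3491 called with LPS and 61.3% of the 3001 called without it. These comparisons share no libraries. They included Rps2, Rps9, Rps12 and Rps20 of the small subunit and Rpl7a, Rpl8, Rpl10, Rpl10a, Rpl12, Rpl15, Rpl36a, Rpl41, Rplp0 and Rplp1 of the large. Across the 75 members with at least 10 counts in every library and without a dominant copy, the log2 fold changes of JQ1 with and without LPS had a Pearson correlation of 0.79 and a Spearman correlation of 0.68, a description across genes, which are not independent replicates. Rpl41 went from 5934, 6424 and 5143 to 8003, 7913 and 8969 normalised counts (log2 fold change 0.51, SE 0.103, DESeq2 adjusted p 2.8e-06), and Rpl36a, which contacts the tRNA exit site, had 0.45 (SE 0.123, adjusted p 0.000627).

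The 6 members called lower included Rpl24, Rpl26, Rps4l, Rps23 and Rps25. Rpl24 had a log2 fold change of -0.52 (SE 0.0758, DESeq2 adjusted p 3.57e-11). Pcnp, on the strand opposite to Rpl24, had -0.83 (SE 0.12, DESeq2 adjusted p 1.92e-11). Under total-count scaling Rpl24 had -0.14 (adjusted p 0.119) and did not pass. Rpl26 fell from 367.6, 315.4 and 389.2 to 162.3, 110.6 and 77.6 normalised counts (log2 fold change -1.61, SE 0.309, DESeq2 adjusted p 6.57e-07), but the sum of Rpl26 and Gm15772 had 0.07 (SE 0.0804, adjusted p 0.485). Rps25 had -0.28 (SE 0.0824, DESeq2 adjusted p 0.00139), and Rps23, at the decoding centre, -0.18 (SE 0.0539, adjusted p 0.00233). By total counts their signs turned, to 0.09 (adjusted p 0.387) for Rps25 and 0.20 (adjusted p 0.000456) for Rps23. In TPM, Rps25 averaged 750 with LPS and 755.8 with LPS + JQ1, and Rps23 averaged 1464 and 1584.

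**Figure D4:**
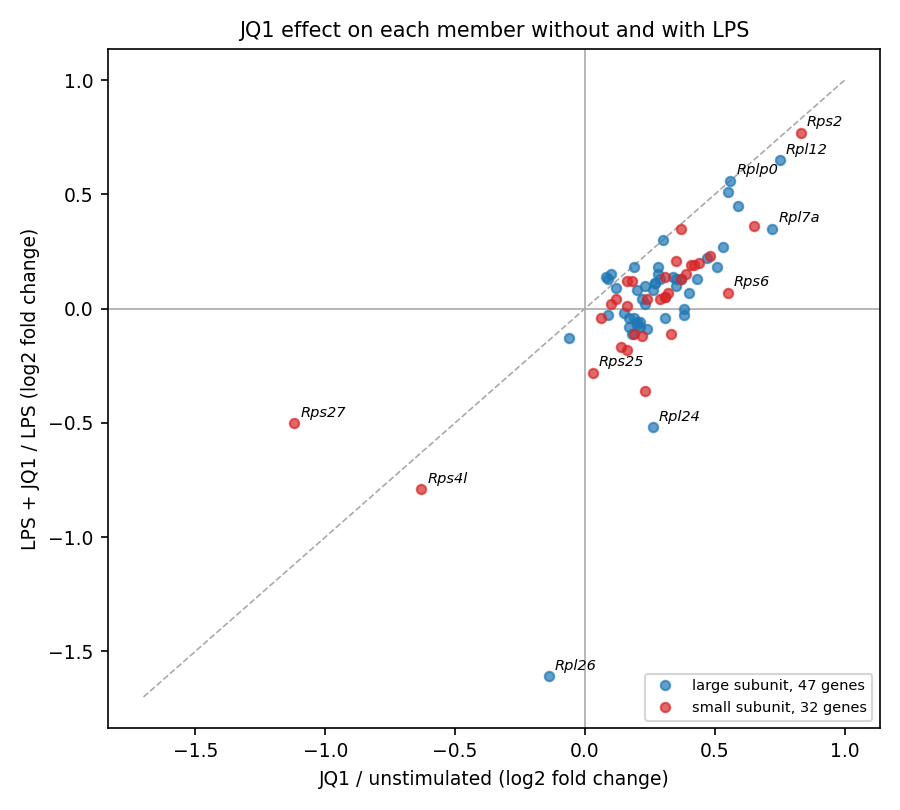
Log2 fold change of JQ1 without LPS (horizontal) and with LPS (vertical) for the 79 members with at least 10 counts in every library, in blue for the large and red for the small subunit, with a dashed line at equality. Most points lie right of 0 and below the line, Rps2, Rpl12 and Rplp0 lie close to the line at 0.56 to 0.83, and Rpl24 and Rpl26 (0.07 when summed with its copy) lie below 0 on the vertical axis.

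The interaction term tested whether the effect of JQ1 differed with LPS, and it includes any vehicle effect, since unstimulated cells were untreated. It was negative for 26 of 80 members and positive for 0 (DESeq2 Wald test), against 23.8% and 17.7% of all genes, with a median of -0.23 for members and -0.05 for all genes, and 33 members had an unadjusted p under 0.05 in either direction, and edgeR called 0 positive and 10 negative (background 23.8% and 20%). The number negative was 12 without replicate 1 and 10 without replicate 2. The sign depended on the scaling. By total counts 51 were positive and 0 negative (background 44.6% and 7.65%), and by limma on TPM 35 and 2 (background 50.4% and 10.3%). The difference of the medians, which a factor per library can barely move, was -0.18 in the main scaling, -0.19 by total counts and -0.14 by TPM. Rps6 is an example, with 4925, 5106 and 5080 normalised counts (unstimulated), 7211, 7404 and 7572 (JQ1), 6950, 7023 and 6481 (LPS) and 7013, 7204 and 7286 (LPS + JQ1). On this scale LPS and JQ1 each moved Rps6 above the unstimulated range, and the libraries with both overlapped those with JQ1 alone (interaction -0.48, SE 0.0629, DESeq2 adjusted p 2.93e-13). In TPM the LPS libraries (434 to 466) lay below the unstimulated ones (558.8 to 593.2), and the LPS + JQ1 libraries (552.3 to 615.4) below those with JQ1 alone (706.4 to 762.4). The interaction of Rps6 was then not called, at 0.07 by total counts (DESeq2 adjusted p 0.294) and 0.02 by limma on TPM (adjusted p 0.817). Rplp0 had an interaction of 0.00 (SE 0.0929, adjusted p 0.996) and Rps2 of -0.06 (SE 0.101, adjusted p 0.691).

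Against JQ1 alone, LPS + JQ1 gave 10 members higher and 1 lower of 80 (DESeq2 Wald test), against 27.6% and 31% of all genes, a median of 0.05 for members and -0.08 for all genes. With TMM it was 16 and 1 (background 28.8% and 28.2%), and by edgeR 15 and 1 (background 33.3% and 33.7%). The split was 0 higher and 63 lower by total counts (background 16.2% and 47.1%) and 0 and 52 by limma on TPM (background 22.4% and 49.2%). Among called members averaging at least 100 normalised counts, Rpl24 (0.44, SE 0.0763, DESeq2 adjusted p 2.16e-08) and Rpl36al (0.40, SE 0.0873, adjusted p 1.35e-05) had the largest rises, followed by Rpl35a (0.36, SE 0.165, adjusted p 0.0469), and Rpl10 was the member that fell (-0.26, SE 0.0541, adjusted p 4.99e-06). Rpl35a had -0.01 under total-count scaling and an adjusted p of 0.217 without replicate 2, and without replicate 1 or 2 the number higher was 6.

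**Figure D5:**
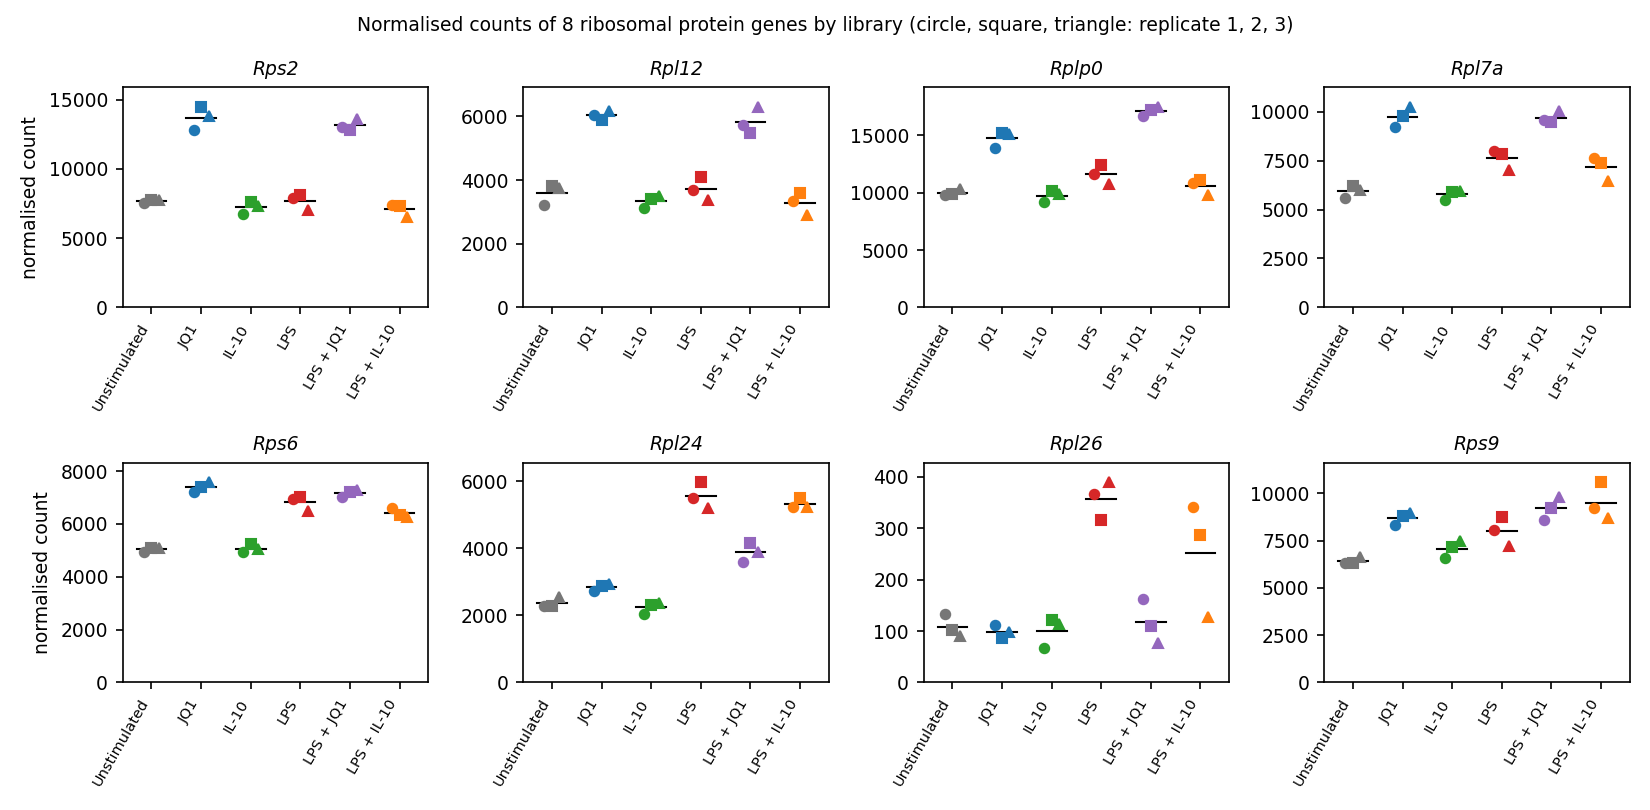
Normalised counts of 8 members in every library, by group, with 1 symbol per library (circle, square and triangle for replicates 1, 2 and 3) and a line at the mean. JQ1 libraries are higher for Rps2, Rpl12, Rpl7a and Rplp0 with and without LPS, LPS libraries are above unstimulated and LPS + JQ1 libraries for Rpl24 and Rpl26, and Rps9 with LPS + IL-10 lies at 8706 to 10566.

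IL-10 given alone changed no member past the threshold. Of 80 members tested, 0 were higher and 0 lower (DESeq2 Wald test, 2 at an unadjusted p under 0.05, and 0 by edgeR against a background of 1.3% and 0.603%), with 1.8% and 1.01% of all genes called, and the median was -0.04 for members and -0.01 for all genes. The middle 50% of log2 fold changes ran from -0.07 to -0.02 over the 79 members with at least 10 counts. Rps2, with 6769, 7612 and 7353 normalised counts, overlapped its unstimulated values. The interaction of LPS with IL-10 was called for 0 of 79 members (4 at an unadjusted p under 0.05, and 0 by edgeR against 3.25% and 2.56% of all genes), with 4% higher and 3.44% lower of all genes.

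In stimulated cells IL-10 gave 1 member higher and 5 lower of 79 (DESeq2 Wald test), against 8.38% and 8.81% of all genes, with a median of -0.11 for members and -0.02 for all genes. The member that was higher was Rps9, a small-subunit protein near the mRNA entry, with 8031, 8760 and 7218 normalised counts with LPS and 9228, 10566 and 8706 with LPS + IL-10. The ranges overlapped (log2 fold change 0.25, SE 0.085, DESeq2 adjusted p 0.0251). Rps24 fell from 9463, 9507 and 9372 to 7930, 8082 and 8220 normalised counts, without overlap (-0.23, SE 0.0584, DESeq2 adjusted p 0.0013). Rps7 (-0.18, SE 0.0587, adjusted p 0.0177), Rps20 (-0.18, SE 0.0667, adjusted p 0.0458), Rpl5 (-0.15, SE 0.0443, adjusted p 0.00804) and Rpl15 were the other members that fell. By total counts 1 was higher and 0 lower (background 12.8% and 5.23%), by limma on TPM 1 and 0 (background 13.3% and 4.23%), and by edgeR 0 and 1 (background 7.98% and 7.89%). Rps9 also passed by total counts (0.34) and by limma on TPM (0.35). Leaving out any 1 replicate number ended the call of Rps9, with adjusted p of 0.17, 0.232 and 0.0762 without replicates 1, 2 and 3, and left 0, 0 and 1 members lower.

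Members that come in pairs of a widespread gene and a relative were set side by side, with levels in TPM and fold changes from normalised counts. Rpl36a had a mean of 486 TPM and Rpl36al of 334 TPM, and JQ1 without LPS had log2 fold changes of 0.59 (SE 0.122, DESeq2 adjusted p 6.44e-06) for Rpl36a and 0.19 (SE 0.0885, adjusted p 0.0708) for Rpl36al. With LPS the values were 0.17 (adjusted p 0.223) for Rpl36a and 0.41 (SE 0.0891, adjusted p 1.19e-05) for Rpl36al, a difference between the pair that was not tested. In TPM both had lower means with LPS, from 514.9 to 336.9 for Rpl36a and from 347 to 267.3 for Rpl36al. Rps27l, a p53-induced relative of Rps27, was at 174 TPM and had 0.43 with LPS (SE 0.0806, DESeq2 adjusted p 1.85e-07), while its mean TPM went from 191.4 to 150.4. Rps4l was at 5.05 TPM against 973 TPM for Rps4x, and had -0.79 for LPS + JQ1 against LPS (SE 0.311, DESeq2 adjusted p 0.0208). The relatives Rpl3l, Rpl10l and Rpl39l stayed below 1.4 TPM in every library, while Rpl3, Rpl10 and Rpl39 averaged 635, 1944 and 923 TPM.

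Genes outside the rule whose products act with the members were described by the same counts, read against 31.6% of all genes called higher and 32.9% lower with LPS, 21.9% and 23.7% with JQ1, and 24.4% and 32.9% for LPS + JQ1 against LPS. The split of these calls depended on the scaling, as for the members. Of 6 further ribosomal protein genes in the files, 5 were higher with LPS and 3 with JQ1, including Rack1, the scaffold on the small subunit (0.46, SE 0.0839, with LPS and 0.47, SE 0.0838, with JQ1; DESeq2 adjusted p 1.19e-07 and 1.61e-07). Of 22 other 5′ TOP mRNAs, 12 were higher and 2 lower with LPS (median 0.31), 13 and 2 with JQ1 (median 0.21), and 6 and 6 for LPS + JQ1 against LPS (median -0.01). By total counts the numbers were 0 and 17, 7 and 4, and 17 and 2 in that order. Pabpc1, the poly(A)-binding protein, rose by 1.01 (SE 0.0566, DESeq2 adjusted p 1.29e-68) and Eef2, the translocation factor, by 0.69 (SE 0.0765, adjusted p 2.57e-18) on the log2 scale with JQ1. Of the 78 mitochondrial ribosomal protein genes, 14 were higher and 19 lower with JQ1 (median -0.04), and 33 and 23 with LPS (median 0.09). By total counts they were 8 and 30 with JQ1 and 4 and 62 with LPS. Those medians stand against 0.26 and 0.30 in the cytosolic members.

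Larp1, whose product binds the 5′ TOP sequence and the cap, had mean normalised counts of 2232 in unstimulated cells, 17340 with LPS and 8808 with LPS + JQ1 (log2 fold change with LPS 2.96, SE 0.0873, DESeq2 adjusted p 3.27e-249), and Eif4ebp2, a repressor of the cap-binding protein, fell from 827.4 to 135.9 with LPS (-2.60, SE 0.107, adjusted p 3.96e-128). In all, 6 of 18 genes of this list were higher and 8 lower with LPS, and 5 and 1 with JQ1 (1 and 15, and 4 and 2, by total counts). Of 13 cap-binding and scanning factors, 11 were higher with LPS (median 1.15) and 7 with JQ1 (median 0.26), and 7 were lower and 1 higher for LPS + JQ1 against LPS. By total counts 6 of them were higher and 4 lower with LPS, 4 and 2 with JQ1, and 4 and 0 for LPS + JQ1 against LPS. Of 7 factors known at ribosomal protein promoters that were tested, 5 were higher with LPS, among them Max, the partner of Myc (2.68, SE 0.0762), and Gabpa, an ETS factor (0.94, SE 0.106), against 1 higher and 4 lower by total counts. Myc itself fell with JQ1 from a mean of 287.5 to 82.7 normalised counts (-1.81, SE 0.19, DESeq2 adjusted p 5.59e-20). A link between these factors and the members was not tested. Of 7 dedicated chaperones and importers, 2 were higher with LPS (1 higher and 6 lower by total counts), led by Ltv1, which aids small-subunit assembly (1.79, SE 0.109), and Ltv1 was lower with JQ1 (-1.03, SE 0.134, DESeq2 adjusted p 2.2e-13). In IL-10 alone 0 genes of any of these lists were called.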

How the data were processed

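RNA-seq libraries (stranded kit, rRNA-depleted, paired-end) from 18 samples were processed by the authors, who aligned reads with STAR to mm9 and quantified genes with RSEM 1.2.31 (submitters' processing notes). The authors deposited expected counts, TPM and effective length per gene and library. Deposited FPKM values were not used. Expected counts were rounded and fitted over all 24485 genes with DESeq2 1.42.0 (6 groups, Wald test, Benjamini-Hochberg adjusted p under 0.05, R 4.3.3). Alternatives used edgeR 4.0.16, limma 3.58.1 on log2(TPM + 1) or log2(TPM + 0.1) for genes with a mean TPM of at least 1, other scalings and filters, a replicate block, sequencing lane, the deposited effective length as an offset, and each replicate left out. Totals were 6781952 to 28289498 counts per library; without molecular identifiers, precision from depth covers counting error only. Near-identical copies were sought with blastn 2.17.0. RSEM was run with its default setting, which ignores strand. The DESeq2 test was tried on simulated counts for the unstimulated and LPS libraries. That simulation changed a small set of genes about equally up and down, so it cannot speak to the choice of scaling.

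The sources used here tie the cells to 3 mice but no replicate number to an animal, so numbers were not taken to pair libraries. Members and gene lists were chosen with earlier results of these data known. Members named with values were the 3 largest called rises and falls per comparison (mean normalised count of at least 100), the stalk genes and Rpsa, genes with known roles outside the ribosome, paralogue pairs, the 3 highest and 3 lowest by TPM, and up to 3 called genes per list. Others named were chosen after their values were seen. The values of some members that this rule names are not reported here.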

Additional observations from a re-analysis of the deposited data

Results flagged for a closer look

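The response to JQ1 differed with LPS for 26 members, all with a negative interaction term (DESeq2 Wald test), of 80 tested and against 23.8% of all genes. The sign depended on the scaling, with 51 positive and 0 negative by total counts (background 44.6% and 7.65%) and 35 and 2 by limma on TPM (background 50.4% and 10.3%). By edgeR 10 were negative (12.7% of members, background 20%), and by TMM 11 (13.8% of members, background 18.8%). The number negative was 12 without replicate 1 and 10 without replicate 2. Among the 26 were Rpl26 (-1.47) and Rpl24 (-0.78). Summed with its copy, Rpl26 had an interaction of -0.20 (DESeq2 adjusted p 0.143).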

How the results depend on the processing

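Numbers of members called are given as higher and lower. By total counts they were 2 and 75 for LPS, 18 and 2 for JQ1, 70 and 1 for LPS + JQ1 against LPS, 0 lower for LPS + IL-10 against LPS, 0 and 63 for LPS + JQ1 against JQ1, and 51 and 0 for the interaction of LPS with JQ1. By limma on TPM, with either pseudocount, they were 2 and 71, 16 higher, 66 and 2, 0 lower, 0 and 52, and 35 and 2 in that order. By TMM, LPS had 1 lower, LPS + JQ1 against LPS 35 and 3, LPS + JQ1 against JQ1 16 higher and the interaction 11 lower. By edgeR, LPS had 1 lower, LPS + JQ1 against LPS 35 higher, LPS + IL-10 against LPS 0 and 1, and the interaction 10 lower. With only the groups compared, JQ1 had 0 lower, LPS + JQ1 against LPS 30 and 3, LPS + IL-10 against LPS 0 and 0, and LPS + JQ1 against JQ1 22 higher. With 10 counts in every library, 3 were lower for LPS and 5 for LPS + JQ1 against JQ1. With lane as a covariate, 2, 0, 3 and 1 were lower for LPS, JQ1, LPS + JQ1 against JQ1 and the interaction of LPS with IL-10. With the length offset, 0, 2 and 1 were lower for the last 3 of these, and summing with copies, chosen after seeing the data, gave 0 lower for JQ1.

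Deviations of same-numbered libraries from their group means correlated between -0.171 and 0.581 over genes, so the numbers were not shown to pair the libraries. As a hint from the data only, all 6 libraries correlated best with their own number in each comparison but LPS + JQ1 against LPS, where 2 of 6 did. With the replicate block, 2 members were lower for LPS + JQ1 against JQ1 and 1 for the interaction of LPS with IL-10, and no other number moved by over 1.5 times.

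The difference of medians was 0.21 for LPS by limma, 0.22 (10 counts in every library) and 0.23 (limma) for JQ1, and 0.04 (10 counts in every library), 0.02 and 0.06 (limma with pseudocounts of 1 and 0.1) for LPS + JQ1 against JQ1. As a share of counts, members held 2.87%, 3.2%, 2.8%, 1.81%, 2.54% and 1.81% in unstimulated, JQ1, IL-10, LPS, LPS + JQ1 and LPS + IL-10 cells, and among genes not changed by LPS 18.4%, 20.1%, 19.4%, 17.4%, 20% and 16.8%.

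Leaving out 1 replicate at a time gave 32 to 61 higher for LPS, 35 to 47 higher and 0 to 1 lower for JQ1, 8 to 13 higher and 2 to 6 lower for LPS + JQ1 against LPS, 0 higher and 0 to 1 lower for LPS + IL-10 against LPS, 6 to 9 higher for LPS + JQ1 against JQ1, and 10 to 29 lower for the interaction of LPS with JQ1. The differences of medians were 0.32 to 0.46, 0.27, -0.06 to -0.03, 0.10 to 0.25, -0.10 to -0.08 and 0.09 to 0.14 for the 6 comparisons in the order LPS, JQ1, IL-10, LPS + JQ1 against LPS, LPS + IL-10 against LPS and LPS + JQ1 against JQ1. Shares of TPM were 8.55% to 8.99%, 9.38% to 9.75%, 8.79% to 9.21%, 6.02% to 6.31%, 7.85% to 8.35% and 6.05% to 6.35% in the group order above.

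For 46 called values of named members under these alternatives, 591 recomputed values kept the call, 105 kept the direction but lost the call, and 39 changed sign. With LPS, total counts and limma on TPM (pseudocounts of 1 and 0.1, same value unless 2 are given) gave -0.49 and -0.34 for Rps6, -0.55 and -0.40 for Rpl5, -0.60 and -0.45 for Rpl23, -0.57 and -0.43 for Rps27a, -0.72 and -0.57 (-0.58) for Rps3, -0.68 and -0.55 for Rpl11, -0.52 and -0.37 for Rpl36al, and -0.50 and -0.35 for Rps27l. For LPS + JQ1 against LPS they gave 0.20 and 0.11 for Rps23 and 0.09 and 0.01 for Rps25, and for the interaction of LPS with JQ1 0.07 and 0.02 for Rps6. The others were Rpl35a for LPS + JQ1 against JQ1 (-0.01 by total counts), Rpsa for JQ1 (-0.02 by limma), Rps27 for JQ1 (-1.54 to 0.20 with each replicate left out, the latter without replicate 3, and 0.24 summed with its copy) and Rpl26 for LPS + JQ1 against LPS (0.07 summed with its copy). The cause was not tested. Leaving the members out of the size factors was also tried after seeing the data.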
